A study of Rattus norvegicus with 7 samples.

Results

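Gene expression after 24 hours of cyclic tensile stress was compared with that after 12 hours in cultured rat spinal cord cells. The comparison used the 24 h array and the 12 h array, 2 of the 7 arrays of the series. Control probe sets were left out, as were probe sets whose mean signal over the 2 arrays was under 100. This kept 17516 of 31042 probe sets, of which 13905 carried 1 gene symbol, and these represented 10242 genes. The other 13526 probe sets were under the floor. Just inside it lay Fer, a tyrosine kinase, with signals of 93.8 at 12 h and 106 at 24 h, and R3hdm2 with 96.2 and 104, and just outside it Zfp536, a zinc finger protein, with 117 and 82.5.

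The spinal cords came from Sprague-Dawley embryos at E15 and were stripped of dorsal root ganglia and meninges before the cells were dissociated and plated. Stretch of 10% strain at 0.5 Hz was begun 3 days after seeding on flexible membranes. Both groups were stretched, one for 12 h and the other for 24 h, and the 0 h array gave the level before stretch. For each time the RNA of 5 animals was combined and hybridised to 1 Affymetrix GeneChip Rat Genome array. A culture kept unstretched for 12 h or 24 h was not analysed here, so time in culture and time under stretch cannot be told apart. With 1 array on each side there was no replicate and no test, and the values below describe 2 pools. Higher and lower therefore refer to these arrays alone.

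The developing spinal cord in culture holds postmitotic neurons, dividing progenitors, glia of the astrocyte and oligodendrocyte lineages, microglia and mesenchymal cells. Neurons are recognised by transcripts for their cytoskeleton, their RNA-binding proteins and their synaptic machinery, and they no longer divide. Dividing cells carry transcripts for replication and mitosis, which are made under E2F proteins and the MuvB complex and are switched off when a cell leaves the cycle. The question put to the data was whether genes that were lowest at 12 h came back at 24 h.

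The label of recovery held in part. Probe sets that were lower at 12 h than at 0 h regained a median of 0.29 of their log2 difference at 24 h, and 0 of 496 reached the 0 h signal. Most of the ground was lost again by 48 h. Neuronal genes were on the recovering side, and those low at 12 h had a median return of 0.33, beside 0.29 for all low genes. Most skeletal muscle genes were not on that side, and genes of DNA replication and mitosis were lower at 24 h than at 12 h.

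The scaled trimmed mean was 500.151 at 12 h and 500.159 at 24 h, and 43.6% and 43.2% of the signals were below 100. The 9 spike-in control probe sets, which report RNA added in the laboratory, were all higher on the 24 h array, with ratios between 1.27 and 1.55 and a median of 1.38. Their median signal was 1077 at 12 h, the lowest of the 7 arrays, and 1455 at 24 h, where the 7 arrays reached 1582. The control probe sets at the 3′ end gave ratios of 1.10 for Gapdh and 1.15 for Actb. The 3′ to 5′ ratio of Actb, a measure of RNA integrity and labelling, was 1.95 at 12 h and 2.20 at 24 h, and lay between 1.53 and 2.62 over the 7 arrays. The part of these differences in the results below was not tested.

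The cell types of the culture were checked against their markers. Neuronal markers were present: Tubb3, the neuronal tubulin, had signals of 453 at 12 h and 609 at 24 h, Map2 of dendrites 912 and 1383, and Rbfox3, which encodes NeuN, 114 and 209. Gfap of astrocytes had 9661 and 10640, Csf1r of microglia 6348 and 7465, and Col1a1 of fibroblasts 17442 and 16855. Muscle transcripts were also detected, with 1605 and 1266 for Acta1, the skeletal actin. The endothelial markers Pecam1, at 19.7 and 26.1, and Kdr, at 58.3 and 48.0, were below the floor, as was Olig2 of oligodendrocyte progenitors, at 7.60 and 1.66. In pooled bulk RNA, fewer cells of a type and less RNA per cell cannot be told apart.

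The 2 arrays differed little. A probe set was called when the ratio was at least 2 and the difference in signal at least 200. By this rule 23 probe sets, 0.131% of those compared, were higher at 24 h, and 18, or 0.103%, were lower. The 41 calls were the fewest of the 6 steps between neighbouring arrays. Either-way calls were 158 (0.898%) from 0 to 2 h, 80 (0.461%) from 2 to 6 h, 136 (0.779%) from 6 to 12 h, 223 (1.27%) from 24 to 48 h and 116 (0.655%) from 48 to 72 h. The SD of the log2 difference over probe sets, taken on log2(signal + 32) here and below, was 0.261 for 24 h against 12 h and 0.301 to 0.372 for the other 5 steps. It was 0.346 for probe sets with a mean signal of 100 to 200 and 0.165 from 2000 upwards, where 0 probe sets were called.

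**Figure D1:**
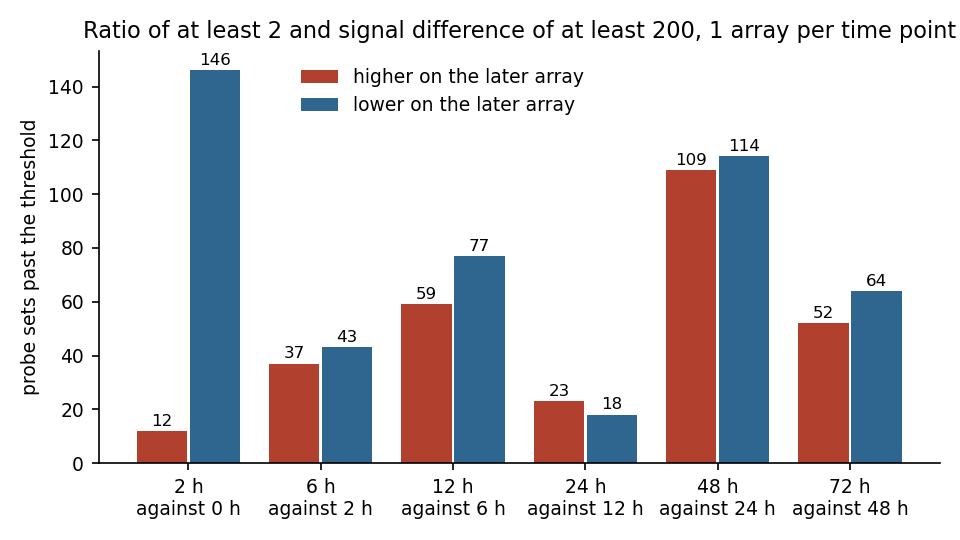
Number of probe sets past the threshold (vertical axis) at each step between neighbouring arrays, with bars for higher and for lower on the later array. The step from 12 to 24 h has 23 higher and 18 lower, the fewest of the 6 steps.

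Of the 23 probe sets that were higher at 24 h, 17 carried 1 symbol, and 16 were among those that had been lower at 12 h than at 0 h by the same threshold. In 17 of the 23 the lowest of the 7 signals was the one at 12 h, and 16 of the 23 were lower again at 48 h than at 24 h. These counts follow in part from the choice of a low 12 h and a high 24 h signal. Over all probe sets compared, 3.0% were lower at 12 h than at 0 h by the threshold, and 7.38% had their lowest signal at 12 h. Of those compared at the next step, 49.3% were higher at 48 h than at 24 h. Mapt encodes tau, the axonal microtubule-associated protein. In order of time, its signals on the 7 arrays, from before stretch to 72 h, were 2819, 1313, 1227, 510, 1214, 646 and 791. The 12 h value was the lowest, the 24 h value was 2.38-fold higher, and it stood at 0.431 of the 0 h signal. On 2 other Mapt probe sets the 24 h signal was 1.07-fold that at 12 h, with 505 and 540, and 1.53-fold, with 479 and 732. Gria2, an AMPA receptor subunit, followed with 792, 264, 268, 184, 417, 341 and 341. Its 24 h signal was 2.27-fold that at 12 h and below that at 0 h, and a second Gria2 probe set read 101 at 12 h and 156 at 24 h. Celf4, an RNA-binding protein of neurons, had 1338, 661, 596, 342, 703, 401 and 448. Here too the gain between 12 and 24 h was followed by a loss at 48 h. Nap1l5, an imprinted gene expressed in brain, went from 3100 at 0 h to 779 at 12 h and 1677 at 24 h. Fstl5, a secreted follistatin-like protein, had 860 at 0 h, 182 at 12 h and 462 at 24 h, and was back at 196 by 48 h.

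Among the other calls was 1 gene of the oligodendrocyte list. Mbp, the myelin basic protein, had signals of 2147, 1407, 829, 628, 1567, 1908 and 1512. The 24 h value was 2.49-fold that at 12 h, and the 48 h value was higher still. A second Mbp probe set read 171 at 12 h and 277 at 24 h, and another 320 and 333. Bcas1, a marker of oligodendrocytes that start to myelinate, had 906 at 0 h, 172 at 12 h, 404 at 24 h and 388 at 48 h. Tspan2, a tetraspanin of oligodendrocytes, was read by 2 probe sets, with 185 at 12 h and 486 at 24 h on one and 280 and 520 on the other. On both, the 72 h signal, 891 and 958, was the highest of the 7. Cdh22, a cadherin of the nervous system, had signals of 2470, 947, 843, 818, 2082, 3700 and 2471. It regained 0.84 of its log2 loss at 24 h and exceeded the 0 h signal at 48 h.

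The noncoding RNA Snhg11 was measured by 4 probe sets. They read 206, 334, 247 and 166 at 12 h and 594, 626, 406 and 329 at 24 h, with returns of 0.93, 0.84, 0.71 and 0.85. Each of them was higher at 24 h, and 1 passed the threshold. The remaining named calls were less uniform. Camta1, a calmodulin-binding transcription activator, read 343 and 714 on the called probe set, 297 and 375 on another and 331 and 236 on the last. Harbi1, a transposase-derived nuclease, had the largest ratio among the calls, 5.71, from 67.7 to 386, while its brighter probe set read 266 and 280. Iqce, a protein of the primary cilium, read 74.7 and 281, and the ribosomal gene Rpl39 179 and 472. Apoc1, an apolipoprotein, read 154 and 371, the metalloprotease Adamts10 225 and 502, and Tatdn1, a putative deoxyribonuclease, 298 and 643. Neither Harbi1 nor these last 5 had been past the threshold at 12 h against 0 h. Harbi1, on the called probe set, and Iqce were under 100 at 12 h and passed the floor only through the 24 h signal. Over the genes called higher, 13 other probe sets passed the floor, and 12 of them were higher at 24 h, with a median log2 difference of 0.51. The rule for naming genes did not select Camta1, Harbi1, Snhg11 and Tspan2 here, or Nefl, Ptpn1, Mplkip and Zfp91 below, and these were chosen after their values were seen.

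Of the 18 probe sets that were lower at 24 h, 16 carried 1 symbol, for 15 genes. In 13 of the 18 the 12 h signal was the highest of the 7, in 10 the 24 h signal was the lowest, and 14 were higher at 48 h than at 24 h. As the 18 were chosen for a high 12 h and a low 24 h signal, these counts follow in part from the choice. Over all probe sets compared, 9.37% had their highest signal at 12 h and 6.16% their lowest at 24 h. Of those compared at the next step, 49.3% were higher at 48 h than at 24 h. Ngfr encodes the p75 neurotrophin receptor. Its signals over the 7 times were 1129, 1509, 1293, 1806, 646, 844 and 1273, so that the highest value at 12 h was followed by the lowest at 24 h, a ratio of 0.358. Slc18a2, which loads monoamines into synaptic vesicles, was lower on all 3 of its probe sets, from 684 to 286, from 392 to 191 and from 905 to 502. The neuropeptide Gal went from 410 to 171 and was at 407 by 48 h. Ntf3, a neurotrophin, was not called, with 177 and 53.7, as its difference was under 200, and it passed the floor only through the 12 h signal. Prph, an intermediate filament of peripheral and motor neurons, read 456 and 257 and was not called either.

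The other calls on the lower side were of mixed kinds. They included the integrin Itga8 with 332 and 124, the tenascin Tnn with 436 and 179, and Sema3e, an axon guidance protein, with 692 and 338. Apod, a secreted lipocalin, read 1221 and 550, and Lrrc17, a secreted leucine-rich repeat protein, 570 and 256. Lrrc17 was lower still at the later times, at 90.5 and 85.6. Msmp, a secreted chemokine-like protein, had the smallest ratio among them, 0.199, from 316 to 62.8, and the nuclease Dxo read 495 and 138. As Msmp was under 100 at 24 h, it passed the floor only through the 12 h signal. The class I gene RT1-T24-4 read 1708 and 791 on a probe set that can share signal with related genes. E2f1, a transcription factor of the G1 to S transition, read 428 and 201. For the remaining 3 named genes the other probe sets of the gene read differently from the called one. Mplkip read 690 and 235 on the called probe set but 1070 and 1309 on another, the phosphatase Ptpn1 669 and 289 but 870 and 818, and the zinc finger protein Zfp91 1167 and 547 but 1461 and 1442. Over the genes called lower, 9 other probe sets passed the floor, of which 4 were higher at 24 h, with a median log2 difference of -0.02.

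**Figure D2:**
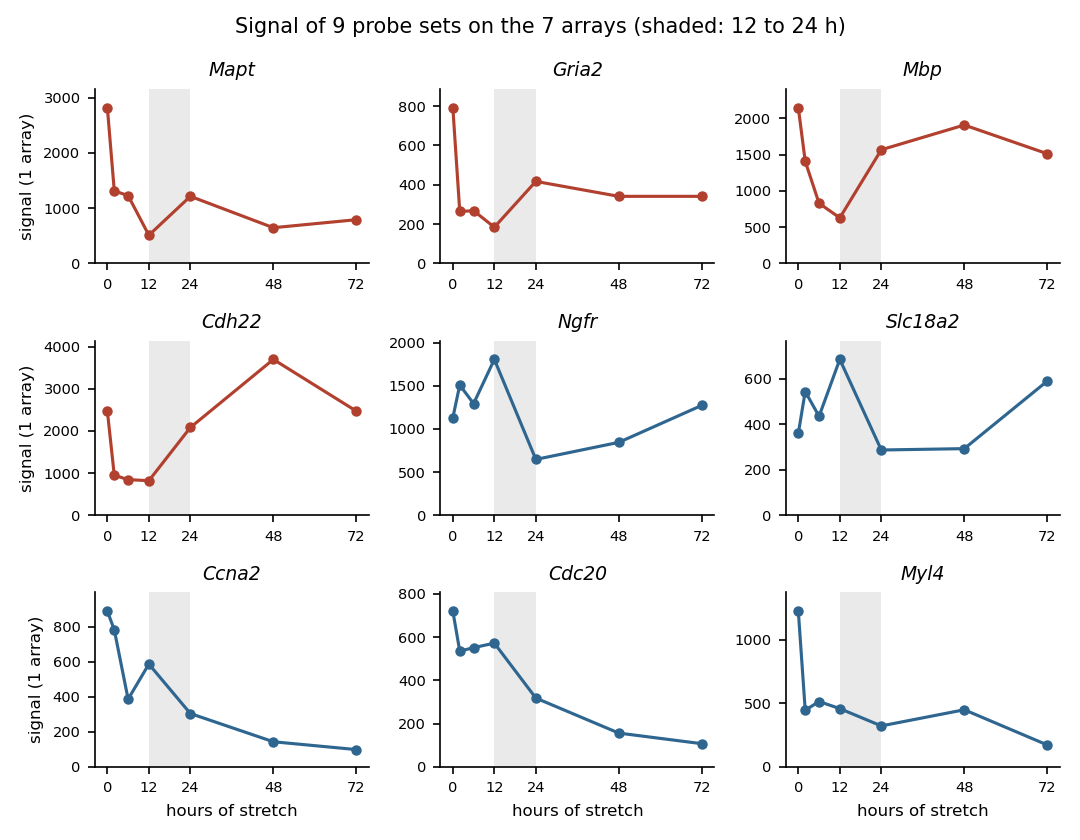
Signal (vertical axis, linear, from 0) against hours of stretch for 9 probe sets, 1 array per point, with the interval from 12 to 24 h shaded. Mapt, Gria2, Mbp and Cdh22 are higher at 24 h than at 12 h, and Ngfr, Slc18a2, Ccna2, Cdc20 and Myl4 are lower.

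The return of genes that were low at 12 h was followed over all probe sets. At 12 h, 532 probe sets, 3.0% of 17745, were lower than at 0 h by the same ratio and difference. Of these, 36 fell under the floor and 496 were compared at 24 h. Their median log2 difference from 0 h was -1.33 at 12 h, -0.99 at 24 h, -1.37 at 48 h and -1.39 at 72 h. Return was defined as the share of the log2 difference between 0 h and 12 h that was regained at 24 h. Its median was 0.29, with quartiles of 0.14 and 0.42. At 24 h, 439 of the 496 (88.5%) were above their 12 h signal, 63 had regained at least 0.5 and 271 were still past the threshold below 0 h. Of the 439, 358 were lower at 48 h than at 24 h. The 439 were taken for a 24 h signal above that at 12 h, so a lower next signal follows in part from the choice. Over all probe sets compared at that step, 49.3% were higher at 48 h than at 24 h.

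The 496 probe sets were chosen on the 12 h array, so a later array can read above it by the choice alone. The same calculation was therefore made at the other times. The median return on the next array was 0.05 for probe sets low at 2 h, -0.09 for those low at 6 h, -0.32 for those low at 24 h and 0.02 for those low at 48 h. The value for 12 h was the largest of the 5. The steps differ in length and the sets in size, from 144 probe sets at 2 h to 826 at 48 h, so the ranking is a description. Members were also chosen on the 2 h or 6 h array against 0 h. The floor on the 12 h and 24 h arrays was still applied to them, and it kept 140 of 146 and 369 of 379. Among 140 probe sets lower at 2 h than at 0 h, 115 (82.1%) were higher at 24 h than at 12 h, with a median log2 difference of 0.51. Among 369 lower at 6 h, 284 (77.0%) were higher, with a median of 0.30. Over all 17516 probe sets 49.1% were higher, with a median of -0.00. Other probe sets of the same genes, which had not themselves passed the threshold at 12 h, were higher in 55 of 88 cases (62.5%), with a median of 0.10.

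**Figure D3:**
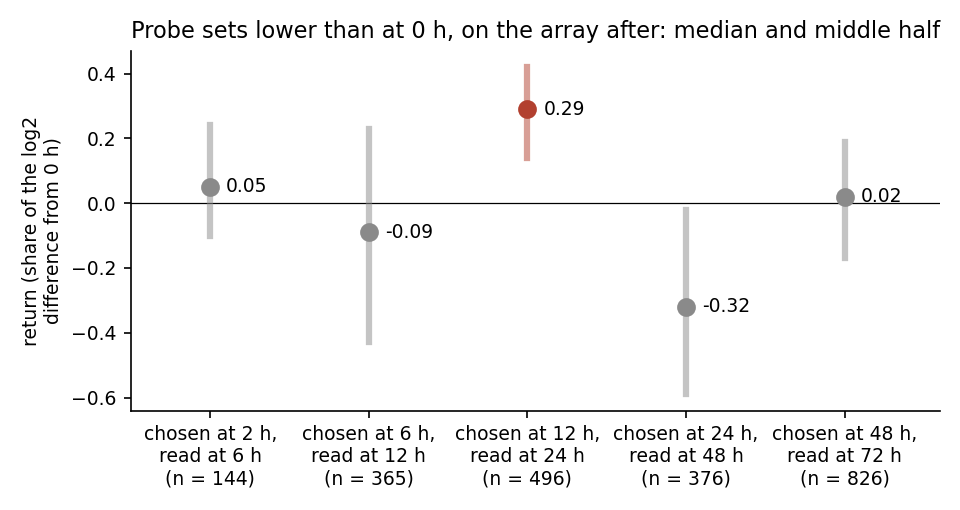
Return on the next array (vertical axis, share of the log2 difference from 0 h) for probe sets lower than at 0 h at each of 5 times, with the median as a point and the quartiles as a bar. Probe sets low at 12 h have a median of 0.29 at 24 h, and those chosen at the other times have medians between -0.32 and 0.05.

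Probe sets that were higher at 12 h than at 0 h did not come back to the same degree. There were 130, or 0.733% of 17745, and their median log2 difference from 0 h was 1.22 at 12 h and 1.11 at 24 h, a return of 0.06. At 24 h 85 were still past the threshold above 0 h. Hmox1, the heme oxygenase of the oxidative stress response, had 3985 at 0 h, 12227 at 12 h and 10442 at 24 h. Akr1b8, an aldo-keto reductase, had 5523, 18928 and 21028. Mmp3, a matrix metalloproteinase, had 179, 652 and 1061, and the growth factor Areg 59.8, 322 and 329. Others were lower at 24 h but still above 0 h: Il7r, a cytokine receptor, had 405, 1748 and 1095, Mmp7 166, 788 and 502, and Il1rn, the interleukin-1 receptor antagonist, 1069, 3268 and 1893. Of the 130, 2 were called lower at 24 h, the probe sets of Mplkip and RT1-T24-4 described above, with returns of 1.53 and 0.80. Next came Hspa4l, a chaperone, with a return of 0.78 and signals of 310, 679 and 370, which then reached 1544 at 48 h.

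**Figure D4:**
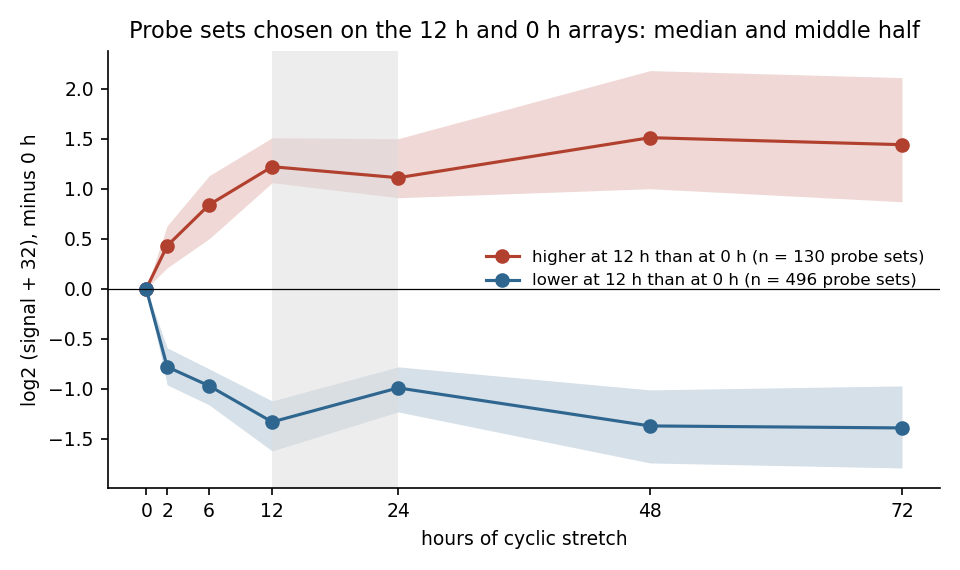
Median log2(signal + 32) relative to 0 h (vertical axis) against hours of stretch for 496 probe sets lower and 130 higher at 12 h than at 0 h, with the quartiles as bands. The lower set goes from -1.33 at 12 h to -0.99 at 24 h and -1.37 at 48 h, and the higher set from 1.22 to 1.11 and 1.51.

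Genes with their lowest signal of the 7 arrays at 12 h were counted next. There were 1293 such probe sets, 7.38% of those compared, against 1079 with the lowest signal at 24 h and 2245 to 3947 at the other 5 times. Their 24 h signal is above that at 12 h by the choice, and the size was small, with a median log2 difference of 0.27 and a 90th percentile of 0.64. The threshold was passed by 17. Conversely, 1642 had their highest signal at 12 h, with a median of -0.23, and 13 of these passed it.

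The neuronal genes were grouped in 7 lists. Of 158 genes measured, 92 passed the floor, and 73 of these were higher and 19 lower at 24 h, with a median log2 difference of 0.29. Over all genes, each by its brightest probe set, 4859 of 10236 (47.5%) were higher and the median was -0.01. By their brightest probe sets 3 passed the threshold, Mapt, Gria2 and Celf4, all higher. Slc18a2, also in these lists, was called lower on probe sets other than its brightest, from 684 to 286 and from 392 to 191. At 12 h 47 of the 92 were lower than at 0 h, and 44 of the 47 were higher at 24 h, with a median return of 0.33 that ranged from -0.46 to 0.55. Of all genes lower at 12 h, each by its brightest probe set, 245 of 283 were higher at 24 h, with a median return of 0.29. Both groups were chosen on the 12 h array, and the neuronal return was close to that of all low genes. At 48 h 75 of the 92 were lower than at 24 h.

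By role, the cytoskeleton and growth cone list had 23 of 26 genes higher, with a median of 0.31. Stmn4, a stathmin of neurons, had 2284 at 0 h, 530 at 12 h and 1059 at 24 h, and the filament protein Ina 1478, 341 and 595. Gap43, the growth cone protein, had 4350, 1476 and 1786, a smaller return of 0.18. Nefl, the light neurofilament, did not come back, with 791, 395 and 284. The neuronal RNA-binding and nuclear markers had 12 of 16 higher, with a median of 0.32. Elavl3 had 617, 145 and 300, and Rbfox3 379, 114 and 209.

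Among synaptic genes, the vesicle and SNARE list had 15 of 19 higher, with a median of 0.28 that was 0.16 without the floor. Snap25, the plasma membrane SNARE, had 2123, 579 and 1003, and the calcium sensor family member Syt4 1645, 404 and 734. Of the receptors 8 of 10 were higher, with a median of 0.28 that was 0.05 without the floor. They included Grin1, the obligate NMDA receptor subunit, with 282, 75.7 and 150, and Glra2, a glycine receptor subunit, with 471, 89.2 and 147. Grin1 and Glra2 were both under 100 at 12 h and passed the floor only through the 24 h signal. Voltage-gated channels were higher in 8 of 11, with a median of 0.35 that was 0.20 at a floor of 200, among them Scn3b, a sodium channel subunit, with 844, 265 and 427. In the transmitter list, of which only 4 genes passed the floor, the vesicular transporters diverged. Slc17a6, for glutamate, had 1330, 264 and 396 and Slc32a1, for GABA and glycine, 311, 122 and 218, whereas Slc18a2 was lower. Of the spinal transcription factors 5 of 7 were higher, with a median of 0.23, and 17 more were under the floor.

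Of the 10 genes with the steepest losses from 0 h to 12 h, Chga, Shisa8, Igfbpl1 and Ttc9b were under the floor and were not compared at 24 h. Chga, a protein of secretory granules, read 260 at 0 h, 10.1 at 12 h, 147 at 24 h and 6.28 at 48 h. Caly, a vesicle protein of neurons, read 826, 124, 268 and 103, and Slitrk1, a synaptic adhesion protein, 368, 51.8, 149 and 53.4. In Caly and Slitrk1 the 24 h signal stood above both neighbours, but Slitrk1 was under 100 at 12 h and passed the floor only through the 24 h signal. Signals under the floor have no reliable order. There Chga, Igfbpl1 and Ttc9b read likewise, and Shisa8 did not, with 27.2, 110 and 126 at 12, 24 and 48 h. Capn6, a microtubule-stabilising calpain homologue, differed, with 914, 149, 176 and 190 and a return of 0.08.

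Other cell types were examined beside the neurons. Oligodendrocyte genes were higher in 9 of 12, with a median of 0.21. Beside Mbp these included Opcml, a cell adhesion molecule, with 436, 78.6 and 218 at 0, 12 and 24 h, and Enpp2, autotaxin, with 1323, 625 and 1004. Opcml was under 100 at 12 h and passed the floor only through the 24 h signal. The transcription factors of the lineage read otherwise, with 191 and 146 at 12 and 24 h for Olig1 and 543 and 349 for Sox10. Astrocyte genes were higher in 14 of 19, with a median of 0.14, and microglial genes in 17 of 22, with a median of 0.09. The complement genes C1qa, C1qb and C1qc were lower at 12 h than at 0 h and came back by 0.35, 0.33 and 0.27. C1qa had 5264, 2147 and 2945 and was at 998 by 48 h. The other 5 microglial genes were lower at 24 h. Among them Ctss had the largest difference of the list, with 16651 at 12 h and 11665 at 24 h. The marker Aif1 also read lower, with 3528 and 3049. Fibroblast genes were higher in 8 of 24, with a median of -0.10, progenitor genes in 2 of 11, with a median of -0.20, and Schwann and neural crest genes in 3 of 8, with a median of -0.26 that was 0.01 at a floor of 200. In the progenitor list Nes, the filament nestin, read 1201 and 811 and Prom1, which encodes the surface protein CD133, 327 and 170. In the neural crest list Erbb3, the neuregulin receptor, read 164 and 98.1 and Tfap2a 165 and 107. At 24 h Erbb3 was under 100, so it passed the floor only through the 12 h signal.

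Skeletal muscle genes gave a contrast within the low members. Of 20 that passed the floor, 15 were lower at 24 h than at 12 h, with a median log2 difference of -0.28. At 12 h 12 of them were lower than at 0 h. Of these 12, 4 were higher at 24 h, and the median return was -0.15, but 12 of 12 were higher at 48 h than at 24 h. Myl4, an embryonic myosin light chain, had 1225, 445, 514, 458, 322, 449 and 172, and Mybph, a myosin-binding protein, 402, 98.8, 188, 144, 89.5, 159 and 23.4. Both lost most of their signal by 2 h and neither was above its 2 h signal at 24 h. Tnnt1, the slow troponin T, was an exception, with 132 at 12 h and 197 at 24 h. Genes lower at 12 h that were in no list had 183 of 207 higher at 24 h and a median return of 0.30.

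**Figure D5:**
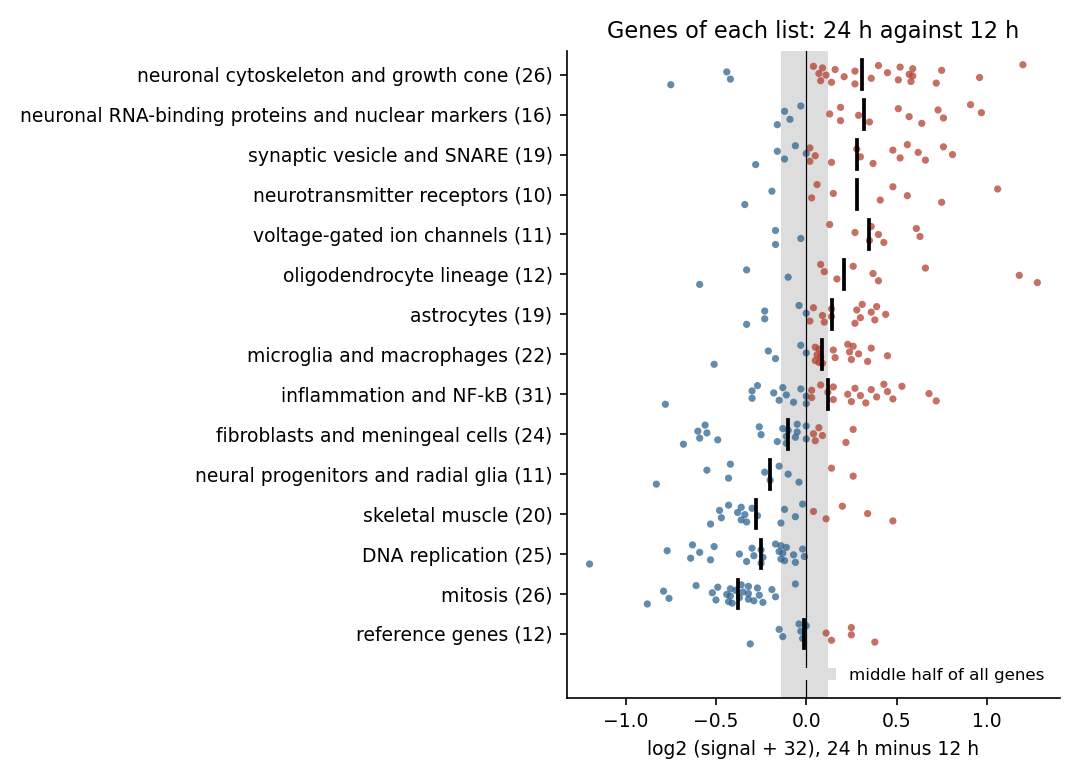
Difference in log2(signal + 32) between 24 h and 12 h (horizontal axis) for each gene of 15 lists, 1 point a gene, with the list median as a black line, the number of genes in brackets and the quartiles of all genes in grey. The 5 neuronal lists drawn have medians between 0.28 and 0.35, and all points of the DNA replication and mitosis lists lie below 0 on the deposited scale, with 1 replication gene above it under quantile normalization or intensity-dependent scaling.

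Genes of the cell cycle were lower throughout. Of 26 mitosis genes 0 were higher at 24 h, with a median log2 difference of -0.38, and of 25 DNA replication genes 0 were higher, or 1 under quantile normalization or intensity-dependent scaling, with a median of -0.25. None of these list genes passed the threshold, and the pattern lay in many differences of 1 sign, most of them under a ratio of 2. At 48 h 46 of the 51 were lower than at 24 h. Ccna2, the cyclin of S phase and mitosis, had 888, 781, 386, 586, 304, 143 and 98.4. Cdc20, an activator of the anaphase-promoting complex, had 720, 535, 551, 572, 318, 156 and 107, and the spindle checkpoint kinase Bub1 727, 714, 517, 635, 362, 219 and 125. The proliferation marker Mki67 read 1222 at 12 h and 788 at 24 h. In each the 12 h signal was above that at 6 h and the following values went down. On the replication side Ccne2, the cyclin of the G1 to S transition, read 217 and 76.4, Cdc45, a part of the replicative helicase, 395 and 218, Pola1, the catalytic subunit of DNA polymerase alpha, 310 and 187, and the thymidine kinase Tk1 377 and 232.

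As the 51 genes were lower together, promoters are shown for 3 of the genes named above, chosen because their windows hold the motifs described here. The windows of Bub1 and Tk1 hold none of these motifs, and that of Cdc45 holds CCAAT alone. The windows are the 250 bases before the transcription start in RefSeq, build GRCr8, written in the direction of transcription. Capitals mark TTTGAA, the cell cycle homology region, CCAAT, the box bound by NF-Y, and TTTCGCGC or TTTGGCGC, the E2F motif, on either strand. The windows are chr5:137255800-137256049 on the minus strand for Cdc20, chr1:199952594-199952843 on the minus strand for Mki67 and chrX:62342356-62342605 on the minus strand for Pola1.
Cdc20: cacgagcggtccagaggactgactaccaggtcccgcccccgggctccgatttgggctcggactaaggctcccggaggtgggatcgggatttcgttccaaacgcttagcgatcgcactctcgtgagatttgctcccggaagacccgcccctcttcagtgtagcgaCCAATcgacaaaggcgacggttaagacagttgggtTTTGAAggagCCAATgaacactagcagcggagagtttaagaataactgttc
Mki67: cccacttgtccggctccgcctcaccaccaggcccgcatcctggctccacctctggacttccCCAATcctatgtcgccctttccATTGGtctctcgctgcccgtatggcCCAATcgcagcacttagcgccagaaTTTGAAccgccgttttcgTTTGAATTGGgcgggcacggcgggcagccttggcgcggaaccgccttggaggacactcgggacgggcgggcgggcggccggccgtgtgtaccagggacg
Pola1: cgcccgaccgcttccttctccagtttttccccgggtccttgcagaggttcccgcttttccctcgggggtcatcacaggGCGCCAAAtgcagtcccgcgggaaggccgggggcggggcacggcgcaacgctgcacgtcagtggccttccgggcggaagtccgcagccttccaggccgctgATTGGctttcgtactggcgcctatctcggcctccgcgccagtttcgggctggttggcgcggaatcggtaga
In Cdc20 TTTGAA lies between a pair of CCAAT boxes, 51 to 46 bases before the start. Mki67 holds it at 117 to 112 and at 99 to 94, and the second copy shares its last base with a reverse CCAAT. Pola1 holds a reverse E2F motif at 172 to 165 and a reverse CCAAT at 71 to 67. Motif shares were counted in windows of 300 bases, which extend 50 bases past the start. TTTGAA was held by 15 of 22 mitosis genes with a listed promoter, by 2 of 23 DNA replication genes and by 18.1% of all 27457 promoters. CCAAT was held by 19 of 22, by 15 of 23 and by 37.7% of all. An E2F motif was held by 1 of 22 mitosis genes, by 11 of 23 replication genes and by 0.841% of all. Of the neuronal genes with a listed promoter, 6 of 71 held TTTGAA, 21 held CCAAT and 0 held the E2F motif. These counts describe letters in the windows, not binding.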

How the data were processed

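The authors processed the arrays in GCOS and calculated signal intensity with MAS 5.0, scaled globally to a trimmed mean of 500. The deposited values are linear signal intensities, 1 per probe set and array. Spots that the authors could not interpret were also left out by them, under a rule not given in the sources used here, and that step was not repeated. Scanner files were not analysed here. Scaling removes any difference in total RNA, and signals near the floor are unreliable.

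From these values the 24 h and 12 h arrays were compared with pandas 2.3.3, scipy 1.17.1, numpy 2.4.6, statsmodels 0.14.6 and matplotlib 3.10.9, run under Python 3.11.15. The threshold of a ratio of 2 and a difference of 200 is that of the study's methods. Log2 values used a pseudocount of 32. Symbols came from the annotation of the platform (2016): 20826 probe sets had a single symbol, 436 had several and 9780 had none. Of the 20826, 20758 were found by gene identifier in the GRCr8 table. A gene was represented by its brightest probe set over the 7 arrays. Promoters were taken from RefSeq, GRCr8.

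Named genes were the 12 highest and 12 lowest ratios past the threshold, the 10 largest losses and gains from 0 to 12 h past it, up to 4 genes of each of 38 lists by size of difference, the cell type markers, and Gapdh, Actb, Tubb3, Gap43, Rbfox3, Hmox1, Serpina3n and Areg. Serpina3n read 276 at 12 h and 475 at 24 h. The comparison, its members and the lists were chosen with earlier results of these data known. The scripts were tested on simulated data. Alternatives were other scalings, floors, thresholds, pseudocounts, baselines and choices of members.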

Additional observations from a re-analysis of the deposited data

How the results depend on the processing

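With 1 array at each time, no array could be left out without losing the comparison, and signals under the floor have no reliable order. No paired analysis was possible because each time point had 1 array and no replicate number. Scaling to the same median, quantile normalization and intensity-dependent scaling gave 42 calls each, and median scaling moved the balance from 23 higher and 18 lower to 20 and 22, with all 18 lower calls and 20 of the 23 higher calls kept. The medians of the neuronal genes lay between 0.25 and 0.32 and those of the cell cycle genes between -0.29 and -0.36 under all alternatives. A ratio of 1.5 gave 113 higher and 94 lower calls, 207 in all. The ratio alone gave 92 and 52, or 144, and a ratio of 3 gave 3 and 2, or 5. Without the floor 2853 probe sets had their lowest signal at 12 h. The median return was 0.40 against the mean of the 0 and 2 h arrays. Taken as a ratio of medians, the return was 0.24 with 77.0% higher for members low at 6 h. It was 0.34 with 82.1% for those low at 2 h, and 0.16 with 62.5% on other probe sets of the same genes. Alternatives chosen after seeing the data gave, as ratios of medians, a return of 0.30 at 24 h, 0.01 at 48 h and 0.03 at 72 h, and 31 calls with 32 added to each signal. The share of the gain kept at 24 h, 0.94, was 0.87 to 0.99. Of 360 list medians under an alternative, 353 stayed within the interval of the reported median, which is wide for short lists. That interval was taken over the genes of a list on the same 2 arrays, so it does not measure the spread between cultures. Of 73 other results under an alternative, such as calls and returns, 54 counted as unchanged and 19 moved. Counts were unchanged within a factor of 1.5, the rest within their interval. Schwann and neural crest genes went from -0.26 to 0.01 at a floor of 200 and to -0.09 at a floor of 50 or none. Neurotransmitter receptors went from 0.28 to 0.05 without a floor, synaptic vesicle genes from 0.28 to 0.18 at a floor of 50 and 0.16 without one, and voltage-gated channels from 0.35 to 0.20 at a floor of 200. Astrocyte genes went from 0.14 to 0.07 and NRF2 genes from 0.12 to 0.06 under quantile normalization. With the mean of all probe sets of a gene, inflammatory genes went from 0.12 to 0.07 and endothelial genes from 0.12 to -0.04. The causes were not tested. The median of ribosomal proteins, 0.09, was -0.03 under quantile normalization, and the cause was not tested.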

Other observations

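Outside the neuronal and cell cycle genes, inflammatory genes were higher at 24 h than at 12 h in 20 of 31, with a median log2 difference of 0.12. Ptgs2, the inducible cyclooxygenase, had signals of 339 and 503 and went on to 1808 at 48 h, whereas Il1rn had 3268 and 1893. Genes of splicing and RNA processing were higher in 20 of 26, with a median of 0.07, among them Srsf11 with 2308 and 2967 and Hnrnpu with 6173 and 7817. Oxidative stress genes of the NRF2 response were higher in 13 of 18, with a median of 0.12, and Srxn1, the sulfiredoxin, had 3937 and 5585. Genes of cholesterol synthesis and uptake were lower in 21 of 25, with a median of -0.10, including Insig1 with 2734 and 2260 and the regulator Srebf2 with 1475 and 1108. Interferon response genes were lower in 15 of 21, with a median of -0.11. The circadian genes Per3, with 108 and 178, and Per2, with 142 and 208, were higher, while Nr1d1, with 273 and 199, was lower. None of these genes passed the threshold between 12 and 24 h.

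Matrix genes had a median of -0.08 over 36 genes, with lower signals for Tgfbi, from 2733 to 1460, Eln, the elastin gene, from 434 to 242, and Mmp13, from 273 to 136. The medians of immediate early genes, p53 targets, the apoptosis core, endoplasmic reticulum stress, heat shock, glycolysis, oxidative phosphorylation, the proteasome, integrins and EGF receptor ligands lay between -0.05 and 0.03, beside -0.01 for the reference genes. Single genes of these lists still differed, such as Fosl2, a member of the AP-1 family, with 280 and 150, and Cdkn1a, the p21 inhibitor of the cell cycle, with 3837 and 5217.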
